A study of Mus musculus with 6 samples.

Results

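Surfactant lipid synthesis genes are described here across lungs of mouse embryos labelled as knockouts of Mll3, a histone methyltransferase, and of wild type embryos. The group holds 32 genes, chosen by symbol for their place in fatty acid, triacylglycerol or phosphatidylcholine synthesis. No measured value entered that rule, but the list was made with earlier results of these data known. All 32 were found among the 24521 genes of the deposited normalized table, and all 32 were among the 19042 genes with enough reads to be tested. Polyadenylated RNA was sequenced from lungs in 3 libraries labelled Mll3FDC/FDC, which the labels also call Mll3 KO, and 3 labelled wild type. Both groups were taken at embryonic day E18.5, shortly before birth, and the lungs had not been aerated. The labels do not say what the FDC allele removes, nor the sex, strain or litter of the embryos. They do not say that each library came from a separate embryo either, so p-values measure the spread among these 6 libraries, which may in part be technical.

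Pulmonary surfactant is made by alveolar type 2 cells and consists largely of phosphatidylcholine, much of it with saturated acyl chains. Late in gestation these cells build fatty acids, activate them as acyl-CoA, place them on glycerol phosphate and add choline through the CDP-choline route. Neighbouring lipofibroblasts hold triacylglycerol and are known to pass lipid to type 2 cells. Most of the same enzymes also serve membrane synthesis in every other cell of the lung.

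No member passed the test between genotypes. By edgeR's quasi-likelihood test with Benjamini-Hochberg adjustment over all 19042 genes, 0 of 32 had an adjusted p under 0.05, where 0.368% of all genes tested did. By unadjusted p under 0.05, 7 members were lower in Mll3 KO lungs, a direction in which 6.02% of all genes passed, and 1 was higher, where 4.71% passed. The 7 were Chpt1, Scd2, Dgat2, Scd1, Agpat2, Elovl5 and Fasn, and the 1 was Acacb. The log2 fold change, Mll3 KO over wild type, was negative for 20 members and positive for 12. Its median over the members was -0.05, beside 0.01 over all genes tested. In 8 members every Mll3 KO library lay below every wild type library, as in 8.45% of all genes, and in 2 members every Mll3 KO library lay above, as in 8.6% of all genes. DESeq2 called 2 members lower, Scd2 and Chpt1, where it called 2.12% of the genes for which it gave an adjusted p. limma voom called 0 members and 0.042% of all genes. At an unadjusted p under 0.05 it had 7 members lower, where 6.24% of all genes were, and 2 higher, where 4.57% were.

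Library totals ran between 20158689 and 23305306 counts. Kmt2c, the gene that encodes Mll3, had 143, 171 and 159 CPM (counts scaled to library size) in Mll3 KO lungs, against 162, 179 and 162 CPM in wild type lungs. Its level over the whole gene therefore does not separate the labels, and a loss of part of the gene might not be seen in these gene totals. Each sample title starts with AK7986 or AK7987, a prefix whose meaning is not stated. Mll3 KO library 1 and wild type libraries 1 and 2 share AK7986, and the others share AK7987. Mll3 KO library 3 had 59951 reads of Xist and 4 reads of Y-linked genes. Each of the other libraries had at least 7414 Y-linked reads and at most 27 reads of Xist. By these reads Mll3 KO library 3 was female and the others were male. A part of sex in the differences between genotypes was not tested. In simulated data of this size edgeR called 50.2% of genes changed 1.5-fold and 79.6% of genes changed 2-fold.

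**Figure D1:**
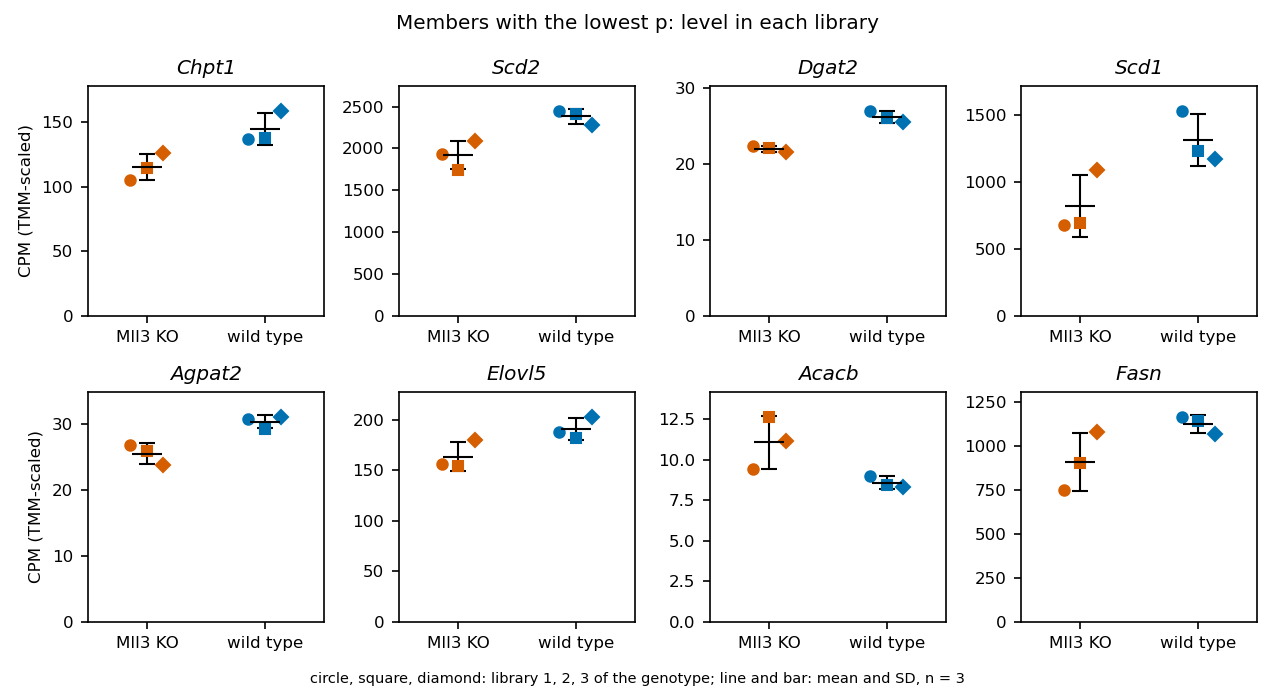
Level in CPM in each library for the 8 members with the lowest p, Mll3 KO on the left and wild type on the right, with the mean and SD of 3 libraries. Acacb is the only one of the 8 that is higher in Mll3 KO lungs, and Fasn is the only one whose genotypes overlap.

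The enzymes that start fatty acid synthesis had differences of both signs. Acly, which makes cytosolic acetyl-CoA from citrate, had 344, 331 and 341 CPM in Mll3 KO lungs, against 312, 312 and 306 CPM in wild type lungs. The libraries of the genotypes did not overlap, and the log2 difference was 0.13 ± 0.06 (SE, edgeR adjusted p = 0.512). Acacb makes malonyl-CoA at the mitochondrion, where it restrains fatty acid oxidation. It had 9.42, 12.7 and 11.2 CPM in Mll3 KO lungs, against 9.03, 8.45 and 8.32 CPM in wild type lungs. The Mll3 KO libraries were all higher, although the lowest of them was close to the highest wild type library, and the log2 difference was 0.36 ± 0.14 (adjusted p = 0.358). Acaca, the cytosolic carboxylase that feeds fatty acid synthase, had 59.8 ± 7.9 CPM in Mll3 KO lungs and 62.3 ± 2.9 CPM in wild type lungs (SD, n = 3 each).

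Fasn (ENSMUSG00000025153, mm10 chr11:120805846-120824547, minus strand) encodes the synthase that makes palmitate, the main acyl chain of surfactant phosphatidylcholine. It had 750, 904 and 1079 CPM in Mll3 KO lungs, against 1168, 1145 and 1070 CPM in wild type lungs. Mll3 KO library 3 reached the lowest wild type library, and the other Mll3 KO libraries lay below all wild type lungs. The log2 difference was -0.31 ± 0.12 (adjusted p = 0.397). As a log2 ratio of mean CPM, it was -0.62 among libraries with the prefix AK7986 and -0.11 among those with AK7987. Under each prefix 1 of the genotypes has only 1 library. Without Mll3 KO library 1 the estimate was -0.19, with an adjusted p of 0.528, in a range of 0.145 to 0.771 over the alternatives.

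The stearoyl-CoA desaturases, which put a double bond into saturated acyl-CoA, held the largest log2 difference of the 32 members, that of Scd1. Scd1 (ENSMUSG00000037071, chr19:44394455-44407879, minus strand) had 675, 691 and 1087 CPM in Mll3 KO lungs, against 1534, 1234 and 1175 CPM in wild type lungs. All Mll3 KO libraries lay below all wild type libraries, with library 3 of the Mll3 KO lungs close to the wild type range. The log2 difference was -0.68 ± 0.20, with a 95% interval of -1.16 to -0.21 and an adjusted p of 0.278, and it is a fold of 0.622. Within the prefix AK7986 the difference was -1.04, and within AK7987 it was -0.40. Without Mll3 KO library 3 it was -0.95 with an adjusted p of 0.0478, the only fit in which edgeR called Scd1. Over all 14 alternatives the adjusted p of Scd1 ran from 0.0478 to 0.669.

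Scd2 (ENSMUSG00000025203, chr19:44293674-44306864, plus strand) lies on the same chromosome as Scd1, with Scd4 between them. It had 1933, 1746 and 2085 CPM in Mll3 KO lungs, against 2452, 2417 and 2278 CPM in wild type lungs. The genotypes did not overlap, and the log2 difference was -0.31 ± 0.09, a fold of 0.807 (edgeR adjusted p = 0.242). DESeq2 gave an adjusted p of 0.0123 for it, the lowest of the alternatives, which ran up to 0.635. The difference was -0.33 among libraries with the prefix AK7986 and -0.25 among those with AK7987. The Scd genes are similar in sequence and their reads were kept at a low mapping quality, so reads shared between the copies may have been counted for either.

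The ratio of Scd1 to Scd2 counts was 0.349, 0.396 and 0.521 in Mll3 KO lungs, against 0.626, 0.511 and 0.516 in wild type lungs. Mll3 KO library 3 lay inside the wild type range, and a two-sided exact permutation test gave p = 0.3, where 3 libraries against 3 cannot go below 0.1. This was 1 of 3 isoenzyme ratios compared, and its p adjusted over the 3 was 0.45.

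Elovl5, which lengthens polyunsaturated acyl chains, had 157, 155 and 180 CPM in Mll3 KO lungs, against 188, 182 and 203 CPM in wild type lungs. Its genotypes did not overlap, although Mll3 KO library 3 came close to wild type library 2, and the log2 difference was -0.22 ± 0.08 (adjusted p = 0.320). Elovl6 turns palmitate into stearate and Elovl1 makes very long saturated chains. Elovl6 had 16.1 ± 1.2 CPM in Mll3 KO lungs and 15.7 ± 2.3 CPM in wild type lungs. Elovl1 had 76.0 ± 7.3 CPM in Mll3 KO lungs and 82.9 ± 7.0 CPM in wild type lungs, and for both genes the genotypes overlapped. The polyunsaturated desaturases also overlapped, with Fads1 at 115 ± 6.0 CPM in Mll3 KO lungs and 106 ± 4.0 CPM in wild type lungs. Fads2 had 74.4 ± 5.1 CPM in Mll3 KO lungs and 73.2 ± 3.0 CPM in wild type lungs. Of the 7 elongases and desaturases, 4 had a negative log2 difference and 3 a positive one, and their median was -0.12.

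Promoter sequences are shown for Fasn, Elovl5 and Agpat2, members of both the fatty acid and the glycerolipid branch with an unadjusted p under 0.05, whose windows run up to the annotated gene start. Each is the 250 bases before the RefSeq start on the gene's own strand, from RefSeq on GRCm38.p6, with motif letters in capitals. Fasn is chr11:120824548-120824797 on the minus strand, Elovl5 is chr9:77917115-77917364 on the plus strand and Agpat2 is chr2:26604418-26604667 on the minus strand.
Fasn: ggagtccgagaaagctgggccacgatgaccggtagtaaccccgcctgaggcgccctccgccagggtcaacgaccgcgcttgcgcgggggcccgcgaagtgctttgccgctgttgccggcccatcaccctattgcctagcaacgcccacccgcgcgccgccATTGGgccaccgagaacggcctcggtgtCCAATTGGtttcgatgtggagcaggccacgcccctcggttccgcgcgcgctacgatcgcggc
Elovl5: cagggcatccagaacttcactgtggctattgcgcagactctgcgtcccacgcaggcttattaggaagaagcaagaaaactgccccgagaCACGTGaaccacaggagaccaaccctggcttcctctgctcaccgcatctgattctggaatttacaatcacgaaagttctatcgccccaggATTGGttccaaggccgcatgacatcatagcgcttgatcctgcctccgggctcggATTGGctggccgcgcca
Agpat2: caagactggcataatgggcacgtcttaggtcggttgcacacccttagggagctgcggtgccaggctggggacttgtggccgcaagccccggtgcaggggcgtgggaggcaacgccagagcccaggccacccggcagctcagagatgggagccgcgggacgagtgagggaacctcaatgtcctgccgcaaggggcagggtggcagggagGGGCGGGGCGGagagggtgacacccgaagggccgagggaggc

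In the Fasn window the capitals mark 3 matches of CCAAT or its reverse complement ATTGG, beginning 90, 62 and 59 bases before the start, of which the last pair overlaps in the letters CCAATTGG. In the Elovl5 window they mark 1 CACGTG, an E-box, beginning 161 bases before the start, and 2 ATTGG at 71 and 17 bases. In the Agpat2 window they mark 2 copies of GGGCGG, a GC box, that begin 42 and 37 bases before the start and share a letter. RefSeq windows were found for 26 of the 32 members, 39 windows in all, and Scd1, Scd2, Fads1, Dgat1, Dgat2 and Pcyt2 had none. On either strand, CCAAT was in 43.6% of the 39 windows and in 33.8% of 32851 windows of all genes. The GC box GGGCGG was in 56.4% of member windows and 32.7% of all windows, and CACGTG was in 5.13% of member windows and 6.02% of all. The core TCACNCCAC was in 3 member windows, 7.69%, against 1.05% of all, and those belong to Acsl1 and Pcyt1a. Windows of the same gene can overlap, and these letter matches are a description and not sites of binding.

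The long-chain acyl-CoA synthetases, which activate fatty acids for use, differed little. Acsl1 had 46.8 ± 7.0 CPM in Mll3 KO lungs and 48.4 ± 4.1 CPM in wild type lungs. Acsl3 had 45.2 ± 3.6 CPM in Mll3 KO lungs and 48.7 ± 2.4 CPM in wild type lungs. Acsl5 had 198 ± 13 CPM in Mll3 KO lungs and 201 ± 7.9 CPM in wild type lungs. Acsl4, an X-linked synthetase that prefers arachidonate, had 199, 237 and 279 CPM in Mll3 KO lungs, against 221, 213 and 231 CPM in wild type lungs. Its lowest and its highest library were both Mll3 KO, and the highest was library 3, which also had the Xist reads. That library was the highest of the 6 for 8 members, among them autosomal Gpam, Lpin2 and Cds1 and not X-linked Pcyt1b. A part of sex in these levels was not tested. All 4 synthetases overlapped between genotypes.

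Among the enzymes that assemble phosphatidic acid, diacylglycerol and triacylglycerol, every Mll3 KO library of Agpat2 and Dgat2 lay below the wild type ones, although neither gene was called. Agpat2 (ENSMUSG00000026922, chr2:26593057-26604417, minus strand) makes phosphatidic acid from lysophosphatidic acid. It had 26.9, 25.8 and 23.8 CPM in Mll3 KO lungs, against 30.7, 29.2 and 31.1 CPM in wild type lungs. The genotypes did not overlap, and the log2 difference was -0.25 ± 0.08 (adjusted p = 0.280). Dgat2, which adds the last acyl chain of triacylglycerol, had 22.4, 22.1 and 21.6 CPM in Mll3 KO lungs, against 27.1, 26.0 and 25.5 CPM in wild type lungs. Libraries of each genotype lay close together and apart from the other genotype, with a log2 difference of -0.25 ± 0.08 (adjusted p = 0.256). The difference was -0.24 within the prefix AK7986 and -0.22 within AK7987.

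Dgat1 catalyses the same reaction as Dgat2 and had the opposite sign, but its genotypes overlapped. It had 20.6 ± 1.9 CPM in Mll3 KO lungs and 18.4 ± 2.1 CPM in wild type lungs. Its log2 difference was 0.16 ± 0.11 (edgeR adjusted p = 0.661). Gpam, the mitochondrial acyltransferase of the first step, had 363, 409 and 481 CPM in Mll3 KO lungs, against 428, 427 and 416 CPM in wild type lungs. The Mll3 KO libraries lay on both sides of the wild type ones. The lipins turn phosphatidic acid into diacylglycerol. Lpin1 had 46.7 ± 4.9 CPM in Mll3 KO lungs and 42.9 ± 3.7 CPM in wild type lungs. Lpin2 had 140 ± 22 CPM in Mll3 KO lungs and 133 ± 11 CPM in wild type lungs, and both lipins overlapped.

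In the CDP-choline route the last step carried the lowest p of all members. Chpt1 (ENSMUSG00000060002, chr10:88452745-88504073, minus strand) joins phosphocholine to diacylglycerol to give phosphatidylcholine. It had 105, 114 and 126 CPM in Mll3 KO lungs, against 137, 137 and 159 CPM in wild type lungs. Every Mll3 KO library lay below every wild type library, and the log2 difference was -0.33 ± 0.08, a fold of 0.798 (edgeR adjusted p = 0.159). The difference was -0.38 within the prefix AK7986 and -0.40 within AK7987. With the prefix as a term, edgeR gave an adjusted p of 0.010 and called Chpt1 as 1 of 32 members, where 3.28% of all genes were called. DESeq2 gave 0.0366, and the alternatives ran from 0.00638 with no filter on low counts to 0.421 without wild type library 3.

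Cept1, which carries out the same step for choline and for ethanolamine, had 81.6, 83.3 and 91.4 CPM in Mll3 KO lungs, against 94.0, 92.4 and 94.8 CPM in wild type lungs. The genotypes did not overlap, but Mll3 KO library 3 came within about 1 CPM of the lowest wild type library, and the log2 difference was -0.13 ± 0.06 (adjusted p = 0.492). The ratio of Chpt1 to Cept1 counts was 1.29, 1.37 and 1.38 in Mll3 KO lungs, against 1.46, 1.49 and 1.68 in wild type lungs. All Mll3 KO ratios were lower, which gave p = 0.1 in the two-sided exact permutation test, the smallest that this design allows, and 0.3 after adjustment over the 3 ratios.

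Pcyt1a encodes the enzyme that activates phosphocholine with CTP and sets the rate of the route. It had 164, 144 and 161 CPM in Mll3 KO lungs, against 165, 169 and 168 CPM in wild type lungs. Mll3 KO library 2 was low and the other Mll3 KO libraries lay just under the wild type ones, with a log2 difference of -0.10 ± 0.07 (adjusted p = 0.638). Its isoform gene Pcyt1b was rare, with 2.30, 5.19 and 3.73 CPM in Mll3 KO lungs and 4.52, 3.88 and 6.25 CPM in wild type lungs. Those values overlapped, and the ratio of Pcyt1b to Pcyt1a did too (exact p = 0.5). The choline kinases start the route. Chka had 122 ± 9.0 CPM in Mll3 KO lungs and 130 ± 7.3 CPM in wild type lungs. Chkb had 3.98 ± 0.59 CPM in Mll3 KO lungs and 3.31 ± 0.17 CPM in wild type lungs. Pcyt2, the matching enzyme of the ethanolamine branch, had 44.0 ± 3.4 CPM in Mll3 KO lungs and 42.4 ± 2.2 CPM in wild type lungs. Pemt, which methylates phosphatidylethanolamine mainly in liver, had 26 to 44 reads a library and 1.59 ± 0.51 CPM in Mll3 KO lungs and 1.67 ± 0.24 CPM in wild type lungs.

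Phosphatidylglycerol, the second phospholipid of surfactant, is made through CDP-diacylglycerol. Cds1, which makes CDP-diacylglycerol, had 81.3 ± 13 CPM in Mll3 KO lungs and 81.6 ± 4.8 CPM in wild type lungs. Pgs1, which makes the phosphatidylglycerol phosphate precursor, had 94.9 ± 9.8 CPM in Mll3 KO lungs and 90.4 ± 4.6 CPM in wild type lungs. Srebf1, the transcription factor that drives fatty acid synthesis genes in many tissues, had 166, 136 and 165 CPM in Mll3 KO lungs, against 174, 161 and 151 CPM in wild type lungs. All 3 genes overlapped between genotypes, and the log2 difference of Srebf1 had a 95% interval of -0.25 to 0.14.

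**Figure D2:**
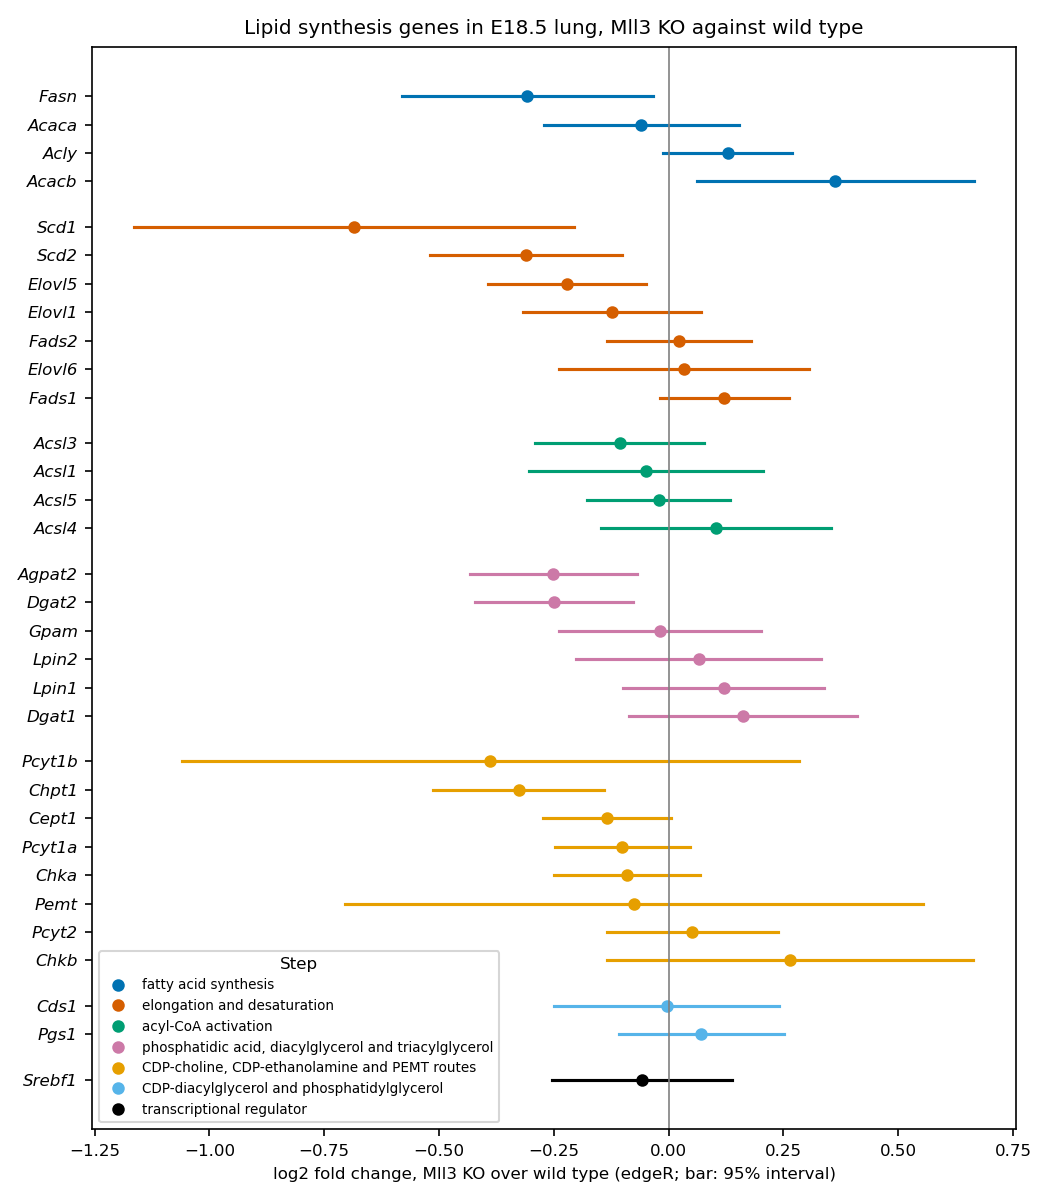
Log2 fold change of each of the 32 members, Mll3 KO over wild type, with the 95% interval from edgeR, grouped by step. The intervals of Chpt1, Scd2, Dgat2, Scd1, Agpat2, Elovl5 and Fasn lie below 0 and that of Acacb lies above 0, before any adjustment for the number of genes.

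Levels were also set per gene length, as CPM per kilobase (RPKM), so that members can be ranked. In wild type lungs Scd2 led with 436 ± 17 RPKM, followed by Scd1 with 269 ± 39 RPKM, Fasn with 103 ± 4.7 RPKM, Gpam with 63.6 ± 1.0 RPKM, Acly with 58.7 ± 0.61 RPKM and Elovl5 with 54.2 ± 3.2 RPKM. Pemt at 0.793 ± 0.11 RPKM, Acacb at 0.893 ± 0.039 RPKM and Pcyt1b at 0.911 ± 0.23 RPKM were the lowest, and they did not differ beyond their spread. The 32 members summed to 1086, 1077 and 1287 RPKM in Mll3 KO lungs, against 1434, 1351 and 1317 RPKM in wild type lungs. All Mll3 KO sums lay below all wild type sums, with Mll3 KO library 3 the closest.

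Most of that gap sat in the desaturases. Scd1 and Scd2 together held 45.0 ± 2.1% of the summed level in Mll3 KO lungs and 51.5 ± 1.6% in wild type lungs (SD, n = 3 each), and these shares did not overlap. The 29 members other than Scd1, Scd2 and Fasn summed to 525, 534 and 585 RPKM in Mll3 KO lungs, against 565, 552 and 562 RPKM in wild type lungs. Here the genotypes overlapped, and Mll3 KO library 3 was the highest of the 6. No test was made on these sums, since the members were chosen with results known.

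**Figure D3:**
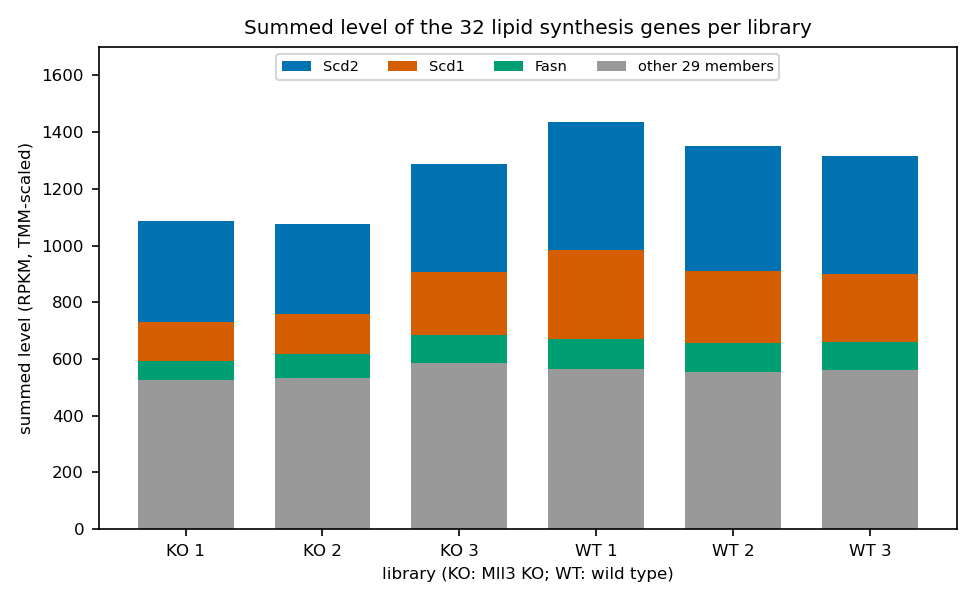
Summed level of the 32 members in each library in RPKM, Mll3 KO libraries on the left and wild type libraries on the right, divided into Scd2, Scd1, Fasn and the other 29 members. The full bars reach 1077 to 1287 RPKM in Mll3 KO lungs and 1317 to 1434 RPKM in wild type lungs, while the lowest segment overlaps between genotypes.

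The Mll3 KO libraries differed among themselves. Against the wild type mean, 21, 18 and 15 of the 32 members were lower in Mll3 KO libraries 1, 2 and 3. The median log2 ratio to that mean was -0.18, -0.06 and 0.01 in the same libraries, and it ran from -0.02 to 0.02 in wild type libraries. Mll3 KO library 1 held the lowest of the 6 values for 13 members, against 6 and 3 for the other Mll3 KO libraries. Library 1 is the only Mll3 KO library with the prefix AK7986, so its own deviation and that of the prefix cannot be told apart within the Mll3 KO group.

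**Figure D4:**
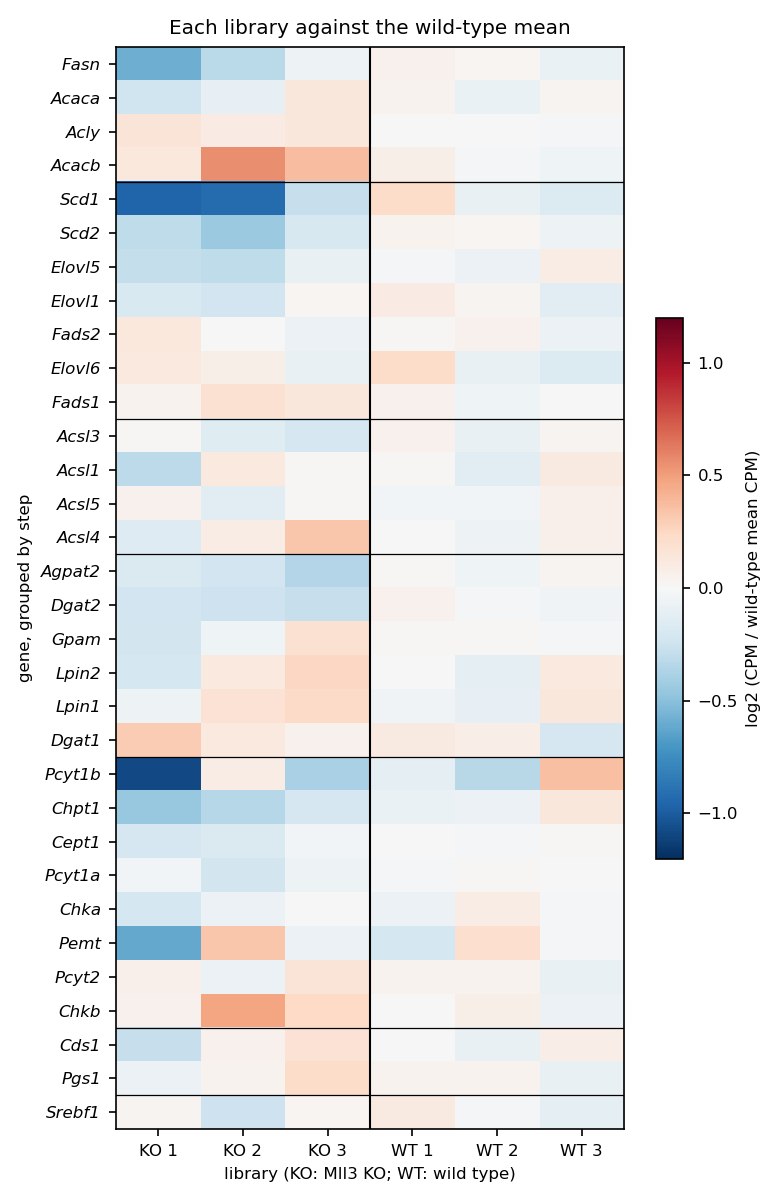
Log2 ratio of each library to the wild type mean for the 32 members, Mll3 KO libraries on the left and wild type libraries on the right, in rows grouped by step. Scd1, Scd2, Chpt1, Dgat2, Agpat2 and Elovl5 are below the wild type mean in all 3 Mll3 KO libraries. So are Fasn, Cept1, Pcyt1a and Chka, by little in some of these libraries. Other members, such as Acaca, Gpam and Cds1, lie on both sides of it.

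Other genes of the same pathways gave 0 calls by edgeR as well. Of 72 such genes listed, 66 were tested. By edgeR's unadjusted p under 0.05, 2 were higher and 3 lower, where 4.71% and 6.02% of all genes tested were. Their median log2 difference was -0.03. Among 19 regulators of lipid synthesis, Mlxipl, a carbohydrate-responsive transcription factor of lipogenic genes, had 6.07, 5.33 and 5.32 CPM in Mll3 KO lungs, against 2.85, 3.83 and 3.67 CPM in wild type lungs. All Mll3 KO libraries were higher, with a log2 difference of 0.69 ± 0.17 and an adjusted p of 0.154. Nr1h3, the liver X receptor alpha gene, had 32.4 ± 3.6 CPM in Mll3 KO lungs and 38.6 ± 1.7 CPM in wild type lungs (adjusted p = 0.368). Mbtps1, a protease that activates sterol regulatory element binding proteins, had 278 ± 14 CPM in Mll3 KO lungs and 252 ± 7.1 CPM in wild type lungs. Cebpa, a transcription factor of fat and lung epithelium, had 188 ± 15 CPM in Mll3 KO lungs and 172 ± 14 CPM in wild type lungs.

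Of 10 genes for remodelling and turnover of surfactant phosphatidylcholine, Lpcat1 and Prdx6 differed in opposite directions. Lpcat1, which reacylates lysophosphatidylcholine with palmitate in type 2 cells, had 1062, 1130 and 1293 CPM in Mll3 KO lungs, against 963, 1010 and 980 CPM in wild type lungs. Every Mll3 KO library was higher, with a log2 difference of 0.24 ± 0.09 (adjusted p = 0.373). Prdx6, which has a phospholipase activity used in surfactant turnover, had 157, 207 and 225 CPM in Mll3 KO lungs, against 269, 221 and 282 CPM in wild type lungs. Its genotypes overlapped narrowly, and the edgeR adjusted p was 0.388. With the prefix as a term it was 0.0231. Prdx6 was the only call among the 66 other pathway genes in that fit, where 3.28% of all genes were called. Over the alternatives its adjusted p ran from 0.0231 to 0.75. Abhd5, a lipase co-activator, had 81.7 ± 2.9 CPM in Mll3 KO lungs and 88.7 ± 6.0 CPM in wild type lungs, and the phospholipase gene Pla2g4a had 20.9 ± 1.7 CPM in Mll3 KO lungs and 23.8 ± 3.9 CPM in wild type lungs.

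Of 20 other glycerolipid and phospholipid enzymes tested, the leading ones were 2 more acyltransferases of the Agpat family. Agpat5 had 41.3 ± 2.5 CPM in Mll3 KO lungs and 47.2 ± 2.7 CPM in wild type lungs (adjusted p = 0.423), and Agpat3 had 133 ± 5.1 CPM in Mll3 KO lungs and 145 ± 3.5 CPM in wild type lungs (adjusted p = 0.488). Neither overlapped between genotypes. The choline transporter gene Slc44a1 had 127 ± 6.3 CPM in Mll3 KO lungs and 135 ± 1.2 CPM in wild type lungs, and the ethanolamine kinase gene Etnk2 had 2.09 ± 0.80 CPM in Mll3 KO lungs and 1.46 ± 0.29 CPM in wild type lungs. Of 17 other fatty acid enzymes tested, the leading were Tecr, Acot7, Scd4 and Elovl2, with log2 differences of 0.14, 0.17, -0.33 and 0.29, and the lowest adjusted p among them was 0.508.

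In whole lung, fewer cells of a type and less RNA per cell cannot be told apart, so marker sums are given beside these values. The 10 alveolar type 2 markers, of which Lpcat1 is 1, summed to 20490 to 25510 CPM in Mll3 KO lungs, against 20520 to 22850 CPM in wild type lungs. Without Sftpc, the most abundant, the sums were 9022 to 11890 CPM in Mll3 KO lungs, against 9281 to 9732 CPM in wild type lungs. Of the 10 log2 differences 7 were positive and 3 negative, with 0 calls. Etv5 and Napsa had 0.45 and 0.42 (edgeR adjusted p = 0.0716 and 0.0573). Lpcat1, Abca3, Sftpb, Lamp3 and Slc34a2 had 0.24, 0.16, 0.14, 0.11 and 0.10. Sftpc and Sftpa1 had -0.02 and -0.02, and Sftpd had -0.69 (adjusted p = 0.515). All 8 alveolar type 1 markers had negative log2 differences and 3 were called lower by edgeR. Of all genes tested, 0.368% were called in either direction. The type 1 sums were 3430 to 4040 CPM in Mll3 KO lungs, against 4931 to 5369 CPM in wild type lungs. The 8 lipofibroblast markers summed to 1577 to 1681 CPM in Mll3 KO lungs, against 1739 to 1835 CPM in wild type lungs. Of their log2 differences 7 were negative, with a median of -0.05 and 0 calls. Inmt, Lpl and Npnt had -1.41, -0.68 and -0.18. Plin2, Pdgfra, Fgf10 and Tcf21 were near 0, at -0.08, -0.03, -0.02 and -0.02, and Pparg had 0.13. The 8 macrophage markers summed to 568 to 752 CPM in Mll3 KO lungs, against 954 to 1404 CPM in wild type lungs, with 6 negative and 2 positive log2 differences and 0 calls. That gap was carried by Lyz2, which type 2 cells also express, at 409 to 601 CPM in Mll3 KO lungs, against 798 to 1233 CPM in wild type lungs. Without Lyz2 the macrophage sums were 152 to 159 CPM in Mll3 KO lungs, against 156 to 172 CPM in wild type lungs, and overlapped. Of the other macrophage markers, Adgre1, Mrc1 and C1qa had log2 differences of -0.35, -0.27 and -0.17 (edgeR adjusted p = 0.393, 0.154 and 0.662). Csf1r, C1qb and Cd68 had -0.05, -0.01 and 0.09, and Marco had 1.34 (adjusted p = 0.294). Without their own most abundant marker, the type 1 sums were 2485 to 2981 CPM in Mll3 KO lungs, against 3649 to 4033 CPM in wild type lungs, and the lipofibroblast sums were 856 to 944 CPM in Mll3 KO lungs, against 954 to 1048 CPM in wild type lungs. The type 1 and lipofibroblast sums were lower in Mll3 KO lungs, as was the summed desaturase level, and their part in it was not tested.

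Adipose tissue and liver also express Scd1 and Fasn at high levels. The 8 adipocyte markers summed to 0.586 to 2.30 CPM in Mll3 KO lungs, against 0.611 to 2.03 CPM in wild type lungs, and their defining genes Adipoq and Plin1 had at most 15 reads in any library. Adipoq had 0 reads in 1 Mll3 KO and 2 wild type libraries. The 8 hepatocyte markers summed to 9.17, 81.0 and 30.2 CPM in Mll3 KO lungs, against 11.3, 14.4 and 18.1 CPM in wild type lungs, highest in Mll3 KO library 2. The 8 skeletal muscle markers were high in Mll3 KO library 2, with 560 CPM, and in wild type library 1, with 558 CPM, and were at 16.0 to 23.0 CPM in the others. Without Mll3 KO library 2 the log2 difference of Scd1 was -0.58 (edgeR adjusted p = 0.486). Without wild type library 1 it was -0.56 (edgeR adjusted p = 0.647). Each of these fits keeps the other library with high muscle markers. A part of adipose, liver or muscle tissue in the Scd1 difference was not tested. Erythroid marker sums were 2582 to 4473 CPM in Mll3 KO lungs, against 2882 to 4361 CPM in wild type lungs, and endothelial sums were 2100 to 2231 CPM in Mll3 KO lungs, against 2197 to 2601 CPM in wild type lungs, both overlapping.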

How the data were processed

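Strand-specific libraries of polyadenylated RNA were read as 75-base single reads, per the labels' protocols. Per the file headers, the authors counted reads per gene with featureCounts in reverse-stranded mode, requiring a mapping quality of 1 or more, and the deposited values are raw whole-number counts. The submitters' processing notes also name bcl2fastq 2.19.1, GSNAP, featureCounts 1.6.3, DESeq2 1.24.0 and mm10. A further deposited file gives a normalized signal, in which each library's counts were scaled by a size factor of its own. All of its values gave back the counts within 0.5 read. The 92 ERCC rows held 1 read and were left out.

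Counts were fitted with edgeR 4.0.16 (TMM scaling, filterByExpr, robust quasi-likelihood), with genotype as the only term and Benjamini-Hochberg adjustment over 19042 genes at 0.05. CPM are TMM-scaled, and RPKM divide them by the counter's gene length. Differences within a title prefix are log2 ratios of mean CPM and were not tested. Under each prefix 1 of the genotypes has only 1 library. The standard error was taken from the log2 fold change and its F statistic. Isoenzyme ratios were compared by exact permutation over libraries with scipy 1.17.1. Alternatives were other scalings and filters, DESeq2 1.42.0, limma 3.58.1 voom, limma on log2(signal + 1), the title prefix as a term and leaving out each library. The steps were tested on simulated data.

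The members and lists were chosen with earlier results of these data known. All members are named, with each library given for the 8 lowest p and for the 2 highest levels per length, which are among those 8, and for some others that illustrate a step, chosen after their values were seen. Of each other pathway list the 4 genes with the lowest p are named. No library was a copy of another: chi-square per degree of freedom between libraries of a genotype was 9.34 to 23.31.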

Additional observations from a re-analysis of the deposited data

How the results depend on the processing

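Over 14 alternatives, 19 of the 32 members kept the sign of their log2 difference, 13 lower and 6 higher in Mll3 KO lungs. The other 13 changed it at least once. Chpt1, Scd2 and Scd1 were the 3 called at least once. The same counts were not made over all genes, so these have no background to be set against. Members called lower were 0 in the edgeR fit as reported, 2 by DESeq2, 1 with no filter on low counts and 1 with the title prefix as a term. Leaving out each library gave 0 to 1, the 1 being Scd1 without Mll3 KO library 3. No alternative called a member higher, and the prefix called 1 other pathway gene lower. Over all genes, calls higher and lower were 12 and 58 as reported, 60 and 289 by DESeq2, 1 and 15 by limma on the normalized signal, 0 and 8 by limma voom, 103 and 340 with no filter, and 142 and 483 with the prefix. Leaving out each library gave 0 to 5 higher and 0 to 36 lower, which is fewer samples as well as other samples. The cause of the other shifts was not tested.

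With library size as the only scaling the log2 difference changed sign for Acsl5 (0.012), Gpam (0.012) and Cds1 (0.027), and with the prefix for Lpin2 (-0.040). Leave-one-out ranges that crossed 0 were as follows. Acaca ran from -0.17 to 0.021, Elovl6 from -0.049 to 0.16, Fads2 from -0.037 to 0.062. Acsl1 ran from -0.14 to 0.063, Acsl4 from -0.031 to 0.21, Acsl5 from -0.063 to 0.031. Gpam ran from -0.14 to 0.068, Lpin2 from -0.043 to 0.18, Pcyt2 from -0.0067 to 0.11. Pemt ran from -0.32 to 0.14, Cds1 from -0.11 to 0.11, Pgs1 from -0.016 to 0.13. Srebf1 ran from -0.11 to 0.029, the Pcyt1b to Pcyt1a ratio from -0.66 to 0.018.
Replicate numbers follow accession order here and pair no libraries. The title prefix, which libraries of both genotypes share, is the only blocking the labels offer, and its fit is the one given above. With 3 libraries per genotype, edgeR called 50.2% of simulated 1.5-fold changes, and smaller changes were not simulated.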
